A study of Arabidopsis thaliana with 12 samples.

Results

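The comparison described here set 3 Arabidopsis thaliana plants exposed to 14 to 16 ppm of gaseous formaldehyde (high) against 3 plants kept in clean chamber air (air, under 0.04 ppm). These were chosen by their titles, 6 of the 12 plants of the series, and 22746 of 22810 probe sets entered the comparison, since 64 array controls were left out. All plants were AB plants, a double transgenic line of the Columbia ecotype that expressed rmpA and rmpB, the genes of a bacterial pathway that fixes formaldehyde, in the chloroplast. Air and high plants alike were 7 weeks old, had 72 h of constant light at 24 °C, and then spent 150 min in a 10 L chamber in the light. Rosette leaves of each plant went onto an array of its own. Neither the promoter of the transgenes nor the number of independent lines is stated in the labels. The 3 plants of a condition shared a chamber run, so condition and run cannot be told apart. The p-values measure only the spread between plants.

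Values are log2 expression levels, normalised by the authors with GCRMA, and a difference of 1 means a 2-fold difference. Values of single plants are given in the order plant 1, 2 and 3. Changes are high minus air, with the standard error (SE) and the adjusted p of limma, and a probe set was called when its adjusted p was under 0.05. The lowest value an array could give was 2.11, called the floor below. Precision is limited by the 3 plants per group. In whole leaves, fewer cells of a type and less RNA per cell cannot be told apart.

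Formaldehyde is a small reactive aldehyde that binds to and cross-links proteins and nucleic acids. Leaf cells make their proteins on cytosolic and chloroplast ribosomes, fold them with chaperones, and sort or degrade damaged ones through the endomembrane system, the proteasome and autophagy. The heat shock and detoxification genes that lead this comparison by size are left aside here, and the account covers the moderate changes in these other processes.

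The leaf marker RCA, the activase of the carbon-fixing enzyme Rubisco, stood between 14.74 and 15.02 in the 6 plants. The root marker PYK10 was at the floor in 5 plants and at 6.17 in air plant 3. The guard cell marker FMA stood at 5.15, 4.84 and 5.05 in air and at 4.32, 4.08 and 4.15 in the high plants (change -0.83 ± 0.28, adjusted p = 0.049, a call lost whichever plant was left out), while the guard cell locus AT1G22690 spanned 9.62 to 11.49 in air and 9.70 to 10.18 in the high plants. The 3' minus 5' signal of the GAPDH control probe sets, a sign of RNA quality, was 1.82 ± 0.23 (SD, n = 3) in air and 1.54 ± 0.03 in the high plants, and that of actin was 5.49 ± 0.07 and 5.46 ± 0.02. The part of these differences in the results below was not tested.

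High against air asked which leaf transcripts differed after strong exposure, with both groups kept in a chamber, though each condition had its own chamber run. In all, 7867 probe sets were called, which is 34.6% of those tested, with 3351 higher (14.7%) and 4516 lower (19.9%). Of these 4298 changed at least 2-fold (18.9% of those tested), and 7720 had no overlap between the high and the air plants (33.9%). The 14.7% higher and 19.9% lower are the background for the counts of list members below. They include 7510 probe sets within 0.5 of the floor in all 6 plants, which can hardly be called. For lists without such members this background is low. Called higher and lower were 23.4% and 29.5% of probe sets with a mean of 6 to 8. The shares were 23.8% and 35.0% at 8 to 10, and 14.9% and 42.6% at 10 or more. The median change was 0.00 over all probe sets and -0.14 without those at the floor. Lists of gene families below, such as PRA1, UGT and cytochrome P450, were drawn up by gene symbol. Only 1535 of the 13286 genes with a probe set had a symbol. Counts of measured family members therefore cover those with a matching symbol and not the whole family. Most calls were moderate. A change of 1 to 3 was found for 1523 probe sets that rose and 2010 that fell, a change of 0.5 to 1 for 956 and 1762, and a change under 0.5 for 326 and 525. At 3 and over the balance was the other way, with 546 rises and 219 falls.

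Calls of small changes depended on single plants more often than calls of larger ones. Each of the 6 plants was left out in turn, and a call was counted as kept when it was made with the same sign in all 6 fits. Of the calls under 0.5, 320 of 851 were kept (37.6%), and of those between 0.5 and 1, 1877 of 2718 (69.1%). Between 1 and 2, 2290 of 2630 were kept (87.1%), between 2 and 3, 856 of 903 (94.8%), and at 3 and over, 734 of 765 (95.9%). Falls did not follow this order to the end, with 93.5% kept between 2 and 3 and 90.9% at 3 and over. Of the falls of 3 and over, 27.9% had a smallest difference from an air plant under 50% of the largest, against 16.8% of those between 2 and 3.

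**Figure D1:**
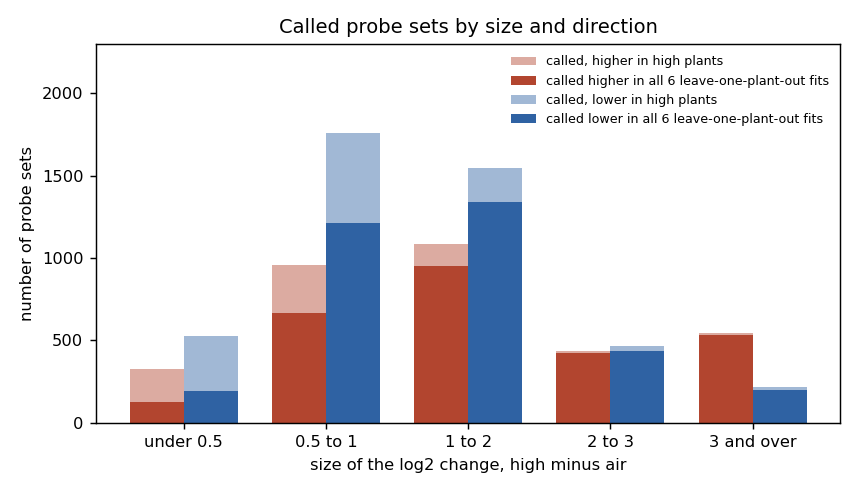
Number of called probe sets (vertical axis) by the size of the log2 change, high minus air (horizontal axis), red for higher and blue for lower in the high plants. Pale bars are all calls and solid bars those kept in all 6 fits that leave out a plant. Falls outnumber rises below 3, and rises outnumber falls at 3 and over.

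The air plants differed among themselves more than the high plants did. The range over 3 plants exceeded 1 for 2262 probe sets in air (9.94%) and for 1333 in the high plants (5.86%). Set against single air plants, 7859 of the 7867 calls kept their sign against all 3. A difference of 0 or of the other sign was found for 7 calls against air plant 1 and for 1 call against air plant 2. The calls were made from these same air plants, so this agreement in sign is no separate test. Sizes differed more than signs. The median size of the called changes was 0.98 against air plant 1, 1.15 against air plant 2 and 1.1 against air plant 3. Air plant 1 was the air plant nearest to the high mean for 3983 of the calls. For 1812 calls (23.0%) the smallest of the 3 differences was under 50% of the largest.

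Ribosomal protein genes fell by a moderate amount. Of 222 listed loci for cytosolic ribosomal proteins, which form the ribosome with its RNAs, 130 had a probe set, and 82 of them fell and 1 rose. The median change was -0.61, against 0.00 over all probe sets tested. The list was compiled from general knowledge, and the gene tables give most of its loci no name, so single members are given by locus. Members are brightly expressed, and of all 2337 probe sets with a mean of at least 10, 996 (42.6%) were called lower with a median of -0.31, against 63.1% of the list. Both subunits took part, with 48 of 70 large subunit genes and 28 of 47 small subunit genes called lower, and so did 6 of 13 genes of the stalk. Only 12 of the 83 called members changed 2-fold or more and 65 changed by 0.5 to 1. Of the 130, 14 lay at the floor in all 6 plants.

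Among the named members, the large subunit locus AT4G02230 stood at 11.37, 11.57 and 11.73 in air and at 10.50, 10.43 and 10.58 in the high plants (change -1.05 ± 0.09, adjusted p = 3.4e-05). The large subunit locus AT1G08360 stood at 12.65, 12.98 and 12.76 in air and at 11.79, 11.48 and 11.85 in the high plants (-1.09 ± 0.13, adjusted p = 0.000173). In both genes all high plants lay below all air plants by more than the spread within either group. The largest fall in the list was at the small subunit locus AT5G39850, with 8.17, 9.02 and 8.99 in air and 6.73, 7.05 and 6.67 in the high plants (-1.91 ± 0.23, adjusted p = 0.000189). The large subunit locus AT2G32220 was the exception, with a change of 1.02, and without high plant 3 there were 3 rises in the list.

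The size of this fall turned on the air plant it was measured against. Over the 116 members above the floor, the median deviation from the air mean was -0.13 in air plant 1, 0.22 in air plant 2 and -0.11 in air plant 3, and 114 of the 116 genes lay above the air mean in air plant 2. The high plants stood at -0.68, -0.70 and -0.52. Low plants 2 and 3 lay at -0.02 and -0.05, but low plant 1 lay at -0.45 and outside plant 3, kept out of the chamber, at -0.39. The median change over the whole list was -0.51 against air plant 1, -0.82 against air plant 2 and -0.48 against air plant 3. With air plant 1 as the lone air plant 22 members were called lower and none higher. Without air plant 2, or without high plant 2, there were 57 falls, and for the small subunit 18 without air plant 2. Of the 82 falls, 54 were kept whichever plant was left out.

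**Figure D2:**
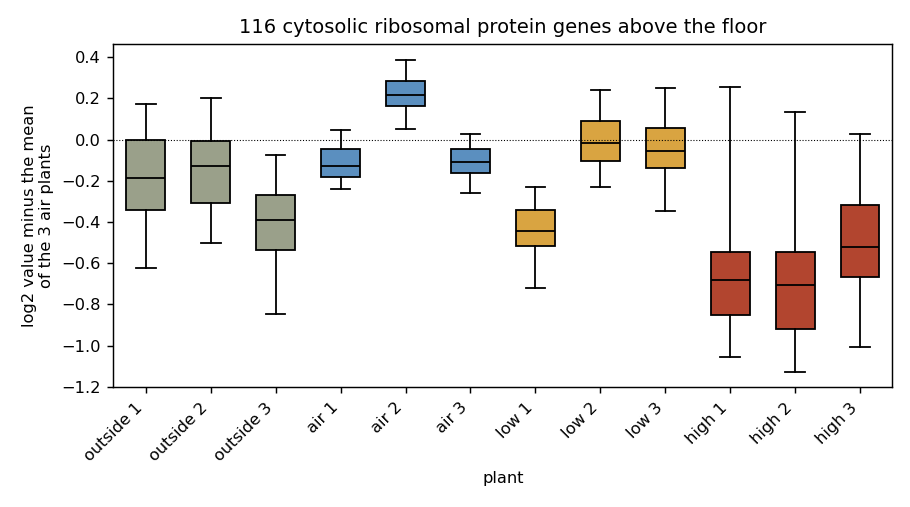
Log2 value minus the mean of the 3 air plants (vertical axis) for 116 cytosolic ribosomal protein genes above the floor, by plant (horizontal axis). Boxes span the middle quartiles with the median, and whiskers run from the 5th to the 95th percentile of genes. The 3 high plants have medians of -0.68, -0.70 and -0.52, and air plant 2 lies at 0.22.

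Other genes of protein synthesis moved to differing extents. Aminoacyl-tRNA synthetases load amino acids onto their tRNAs. Of 15 measured (26 listed) 8 fell (53.3%, against 19.9% of all probe sets) and 1 rose, with a median of -0.42. Among all probe sets with a mean of 8 to 10, 35.0% were called lower. The alanine enzyme ALATS stood at 10.46, 10.98 and 10.85 in air and at 9.88, 9.85 and 9.57 in the high plants (-1.0 ± 0.13, adjusted p = 0.000286). Locus AT5G38830 rose by 0.60 (adjusted p = 0.00493). Translation initiation and elongation factors did not follow the ribosomal proteins, with 6 of 15 measured (53 listed) higher (40%) and 3 lower (20%), at a median of 0.17. In this list AT5G12110 rose from 8.12, 9.21 and 9.44 to 11.34, 11.40 and 11.84 (2.60 ± 0.30, adjusted p = 0.000171), and AT5G54940 rose by 1.15. Of 16 measured ribosome biogenesis genes 2 fell (12.5%) and 1 rose (6.25%), at a median of -0.07. The rise was lost without air plant 3 or high plant 1 or 2. The chaperonin CCT folds actin, tubulin and other new proteins in the cytosol. Of its 8 measured subunit genes (9 listed) 6 fell (75%) and none rose, at a median of -0.59. All 6 falls were kept whichever plant was left out. The CCT locus AT5G16070 stood at 9.24, 9.17 and 9.09 in air and at 8.34, 8.37 and 8.17 in the high plants (-0.87 ± 0.06, adjusted p = 6.49e-06), with no overlap.

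Most measured genes in a list of nuclear genes for the reading and editing of chloroplast RNA fell. Chloroplast transcripts are spliced, edited and translated by proteins made from nuclear genes, many of which bind a single transcript. Of 44 listed genes of this kind 20 were measured, and 16 fell and none rose, with a median of -1.45. The list was added after some of its genes had been seen to fall, so its count is a description. A list drawn up by symbol, OTP for organelle transcript processing, was mixed. Of its 8 measured genes 3 fell (37.5%) and 1 rose (12.5%), at a median of -0.19 with 2 at the floor. Of these falls 2 were kept whichever plant was left out, and the 1 rise was kept too. CRR21, which edits a transcript of the NADH dehydrogenase-like complex, stood at 7.89, 7.79 and 7.61 in air and at 4.63, 4.93 and 4.95 in the high plants (-2.93 ± 0.18, adjusted p = 4.32e-06). CAF1, a factor for splicing of chloroplast introns, stood at 7.70, 8.09 and 8.06 against 6.02, 5.84 and 5.78 (-2.07 ± 0.13, adjusted p = 5.55e-06). FUG1, a chloroplast translation initiation factor, stood at 11.50, 11.69 and 11.71 against 10.20, 10.10 and 10.34 (-1.42 ± 0.09, adjusted p = 5.43e-06). In all 3 genes the groups lay far apart and the plants of a group close together. RAP, which acts in maturation of chloroplast ribosomal RNA, fell by 1.97, the helicase RH39 fell by 1.49 and ATAB2, needed for translation of photosystem transcripts, fell by 1.28. All 16 falls were kept whichever plant was left out, and with air plant 1 as the lone air plant 13 were called.

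The chloroplast NADH dehydrogenase-like complex carries electrons around photosystem I. All 4 of its measured genes (21 listed) fell, each kept whichever plant was left out. This list was also added after values of these data had been seen, so its count is a description. CRR42, an assembly factor, stood at 9.10, 9.40 and 8.98 in air and at 4.39, 3.88 and 4.45 in the high plants (-4.92 ± 0.22, 30.3-fold lower, adjusted p = 6.21e-07). The subunit genes moved less. NdhN fell by 1.66, NdhL by 1.16 and NdhS by 1.15, and for NdhN high plant 3 (9.41) lay nearer to the lowest air plant (10.25) than high plants 1 and 2 (8.81 and 8.43).

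Genes of the chloroplast genome itself were rarely called. Their median deviations from the air mean were 0.17, -0.01 and -0.19 in the air plants and 0.13, 0.18 and -0.53 in the high plants. With plants this far apart, few calls do not show a lack of change. Of 69 probe sets for these genes 1 was called higher and 1 lower, at a median of -0.08. The lower one, rbcL, encodes the large subunit of Rubisco and stood at 9.39, 9.30 and 9.78 in air and at 8.67, 8.82 and 7.98 in the high plants (-1.0 ± 0.31, adjusted p = 0.0319). That call was lost without any one of the air plants, without high plant 1 or without high plant 3, where its adjusted p ran from 0.0526 to 0.107. The higher one, petD, changed by 1.2 (adjusted p = 0.024) and was lost without air plant 2 or 3 or high plant 1 or 2. Of 10 measured chloroplast ribosomal protein genes (40 listed) 4 were called lower (40%) at a median of -0.43. None of the 4 was kept whichever plant was left out, and without air plant 1 or without high plant 1 or 2 the count was 0. Among all probe sets, 35.0% of those with a mean of 8 to 10 and 42.6% of those of at least 10 were called lower. In the list of thylakoid lumen and photosystem assembly 5 of 15 measured genes fell (33.3%) and 1 rose (6.67%), at a median of -0.44. High plant 3 lay at -0.10 in that list's median and high plants 1 and 2 at -0.46 and -0.65, and without high plant 3 there were 9 falls. The rise was lost without any one of the air plants or without high plant 3. PAM68, an assembly factor of photosystem II, fell by 1.33 (adjusted p = 0.000498).

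In chlorophyll synthesis HEMA2 moved against the other called genes. HEMA2 encodes an isoform of the enzyme that commits glutamate to tetrapyrrole synthesis, and it stood at 6.36, 6.08 and 5.68 in air and at 8.20, 8.25 and 8.53 in the high plants (2.29 ± 0.16, adjusted p = 9.11e-06). The later steps CHLI2, a magnesium chelatase subunit, CHLM and PORB fell by 1.36, 0.99 and 1.11. Of the 7 measured genes 3 fell and 1 rose. In starch and sucrose metabolism 5 of 6 measured genes (39 listed) fell and none rose, at a median of -1.21. PWD (AT5G26570), which phosphorylates starch for its breakdown, stood at 10.81, 10.87 and 10.67 against 9.37, 9.37 and 8.97 (-1.54 ± 0.11, adjusted p = 8.05e-06). The sucrose synthesis gene ATSPS4F stood at 9.51, 11.36 and 10.99 in air and at 6.90, 5.97 and 6.08 in the high plants, so that its difference was -3.2 against air plant 1 and -5.04 against air plant 2. The sixth gene, APL4, lay near the floor in all plants. Thiamin synthesis was represented by THIC, which stood at 11.87, 11.94 and 11.95 against 9.84, 9.75 and 9.29 (-2.29 ± 0.13, adjusted p = 2.47e-06).

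**Figure D3:**
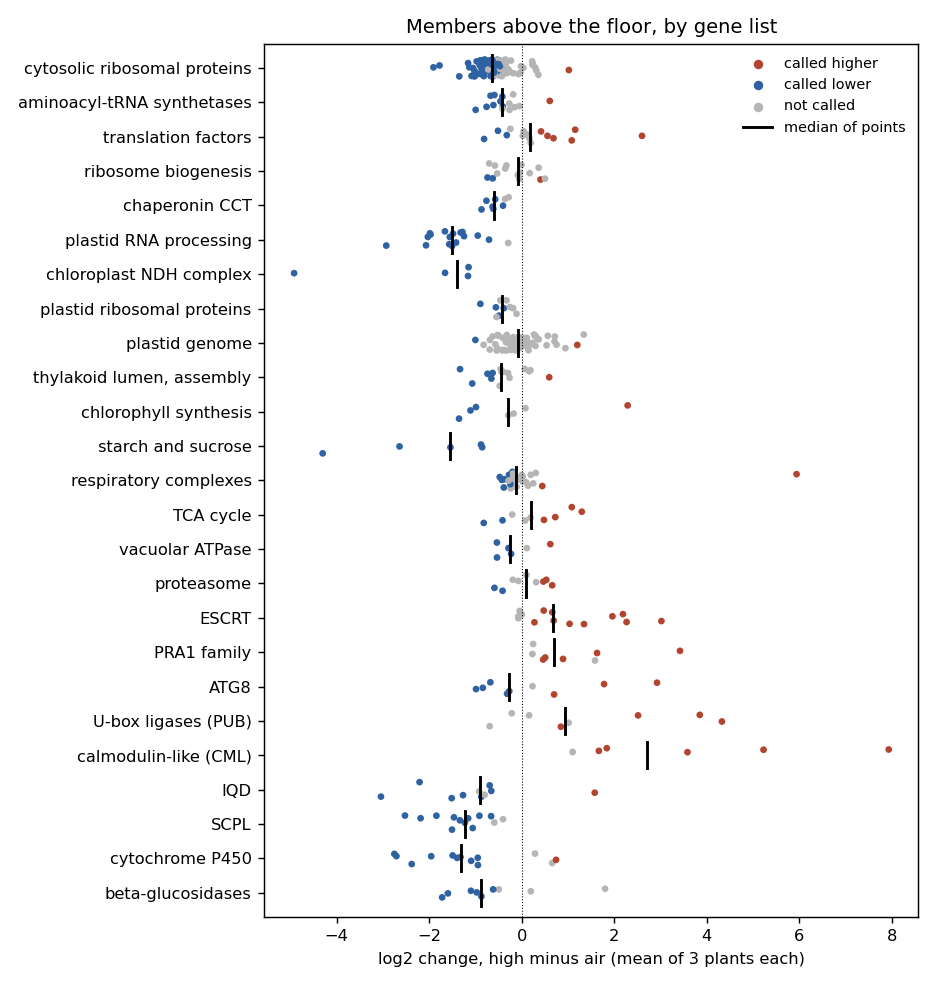
Log2 change, high minus air (horizontal axis), of each measured gene above the floor in 25 gene lists (vertical axis). Points are genes, red where called higher, blue where called lower and grey where not called, and black bars are medians of the points. Most ribosomal protein and plastid RNA processing genes lie left of 0, and most endosomal sorting and calmodulin-like genes right of it.

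Genes of the mitochondrion changed one by one. Of 30 measured genes of respiratory complexes (56 listed) 7 fell (23.3%, against 19.9% of all probe sets) and 2 rose (6.67%, against 14.7%). None of the 30 lay at the floor, so these shares over all probe sets are a low background here. Of all probe sets with a mean of 6 to 8, 29.5% were called lower. That share was 35.0% at 8 to 10 and 42.6% at 10 or more. The median of the list was -0.13, and 3 of the falls were kept whichever plant was left out. There were 3 falls without air plant 2 or high plant 1, 4 without high plant 2 or 3, and 1 with air plant 1 as the lone air plant. The exception in size was locus AT5G25450, listed with complex III, at 5.90, 5.98 and 6.16 in air and 11.77, 12.08 and 12.00 in the high plants (5.94 ± 0.19, 61.3-fold higher, adjusted p = 9.9e-08). The electron carrier cytochrome c showed a rise in CYTC-2, from 8.83, 9.17 and 9.31 to 11.81, 11.95 and 11.97 (2.81 ± 0.20, adjusted p = 9.63e-06). In the tricarboxylic acid cycle 4 of 9 measured genes rose (44.4%) and 2 fell (22.2%). The isocitrate dehydrogenase subunit IDH-V stood at 10.48, 10.45 and 10.44 against 11.54, 11.57 and 11.49 (1.08 ± 0.11, adjusted p = 5.82e-05), its homologue IDH-VI rose by 1.3, and locus AT5G65750 fell by 0.82. Among isoforms of membrane subunit a of the vacuolar proton pump, VHA-A3 and VHA-A2 both fell by 0.54. VHA-A1 was called with a change of 0.62 (adjusted p = 0.016), but not without air plant 2 (adjusted p = 0.0613), without high plant 1 (0.0552) or with air plant 1 as the lone air plant (0.214).

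Genes of endosomal sorting rose. The ESCRT complexes sort ubiquitin-tagged membrane proteins into vesicles bound for the vacuole. Of 25 listed genes 15 were measured, and 10 rose and none fell, at a median of 0.66. This list too was added after some of its genes had been seen to rise. ELC, the ubiquitin-binding subunit of ESCRT-I, stood at 8.36, 8.20 and 7.97 in air and at 10.33, 10.36 and 10.40 in the high plants (2.19 ± 0.12, adjusted p = 1.65e-06). VPS60.1 stood at 8.35, 7.63 and 7.76 against 11.06, 11.04 and 10.70 (3.02 ± 0.18, 8.10-fold higher, adjusted p = 2.88e-06). In both, every high plant lay well above every air plant. The ESCRT-III genes VPS20.1, VPS2.1 and VPS46.2 rose by 2.26, 1.96 and 1.03. VPS22 and VPS24.1 had changes of -0.05 (adjusted p = 1) and -0.08 (adjusted p = 0.946), and 7 of the 10 rises were kept whichever plant was left out.

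Other genes of membrane traffic moved in both directions. VPS9B, an activator of small GTPases of the endosome, fell from 7.02, 7.28 and 6.74 to 5.70, 5.18 and 5.35 (-1.60 ± 0.16, adjusted p = 6.28e-05). SEC22, which drives fusion of vesicles between endoplasmic reticulum and Golgi, stood at 9.50, 9.54 and 9.20 against 10.80, 10.91 and 10.70 (1.39 ± 0.09, adjusted p = 6.58e-06). Of 9 measured PRA1 genes, a family of small membrane proteins of vesicle traffic, 5 rose (55.6%) and none fell (median 0.51). Of the rises 3 were kept whichever plant was left out, as many as were called without air plant 2 or 3 or high plant 2. PRA1.B4 stood at 7.41, 6.88 and 6.81 against 10.30, 10.59 and 10.48 (3.42 ± 0.24, adjusted p = 7.79e-06), whereas PRA1.A1 moved from 8.22 in each air plant to 9.20, 9.08 and 9.06. PRA1.B6 and PRA1.F1 show the limit of such calls. Their air values were 5.83, 4.49 and 4.39, and 5.91, 3.87 and 3.69, with air plant 1 close to the high plants, and only PRA1.B6 was called (adjusted p = 0.0181 against 0.0616), a call lost without air plant 2 or 3 or high plant 2 or 3. Among 15 tetraspanins, membrane scaffold proteins, 4 rose (26.7%), 1 fell (6.67%) and 10 were not called, and 7 of the 15 lay at the floor. TET8 rose from 9.92, 8.99 and 9.34 to 13.03, 13.13 and 13.01 (3.64 ± 0.21, adjusted p = 2.75e-06), and TET3 fell by 1.49.

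The endoplasmic reticulum stress sensor BZIP28, a membrane-bound transcription factor, had the smallest adjusted p of the rises of 1 to 3 among genes with a symbol, no overlap, a mean of at least 6 in the higher group and a place outside the heat shock lists. It stood at 8.07, 7.96 and 8.20 in air and at 10.19, 10.20 and 10.18 in the high plants (2.11 ± 0.07, adjusted p = 1.47e-07). The related sensor BZIP17 differed by 0.38 (adjusted p = 0.0451), and its call was lost when any plant other than high plant 3 was left out. Both belong to the list of endoplasmic reticulum folding, where 3 of 5 measured genes (23 listed) rose and 1 fell, at a median of 0.38. The fall was in CRT1b, at 10.28, 10.31 and 10.65 against 9.16, 8.83 and 9.21 (-1.35 ± 0.14, adjusted p = 6.9e-05), and was kept whichever plant was left out. Autophagy was represented by 9 genes of the ATG8 family, ubiquitin-like proteins that coat autophagosomes, and the family split, with 3 higher and 5 lower. ATG8H stood at 7.21, 6.77 and 6.63 against 9.69, 9.96 and 9.74 (2.92 ± 0.21, adjusted p = 9.61e-06). ATG8E rose from 10.50, 9.26 and 9.57 to 11.75, 11.77 and 11.14 (1.78 ± 0.30, adjusted p = 0.00136) and APG8A rose by 0.70. ATG8F stood at 12.48, 12.17 and 12.60 against 11.37, 11.77 and 11.57 (-0.84 ± 0.14, adjusted p = 0.0014). Of the rises all 3 and of the falls 1 were kept whichever plant was left out, and there were 3 falls without any one of the air plants, without high plant 1 or without high plant 3.

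Genes that attach and remove ubiquitin changed in part. Of 9 measured U-box ubiquitin ligases 4 rose (44.4%) and none fell (median 0.84). PUB22 stood at 4.17, 3.94 and 2.99 against 8.15, 8.05 and 7.88 (4.33 ± 0.32, 20.0-fold higher, adjusted p = 1.23e-05), and its relatives PUB23 and PUB24 rose by 3.85 and 2.51. The 3 are known as negative regulators of immune signalling. Of 12 measured ubiquitin-conjugating enzymes only UBC16 was called, at 7.44, 7.39 and 7.28 against 8.94, 9.13 and 8.91 (1.62 ± 0.13, adjusted p = 1.57e-05). Of 12 measured ubiquitin-specific proteases 4 rose (33.3%), with UBP23 at 0.83 and UBP24 at 0.65, and 6 rose without high plant 3. The 1 fall in that family was lost whichever plant was left out. The proteasome list had 3 rises (33.3%) and 2 falls (22.2%) among 9 measured genes of 51 listed. The largest of these changes was 0.66 at AT5G23540, and there was 1 fall without any one plant but high plant 1.

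Signalling genes moved in both directions by family. Of 7 measured calmodulin-like calcium sensors 5 rose and none fell. Besides those with the largest changes, CML23 stood at 5.86, 4.57 and 4.91 against 8.18, 9.15 and 8.76 (3.58 ± 0.46, adjusted p = 0.000321), CML42 rose by 1.84 and CML30 by 1.67. The IQD proteins bind calmodulin and associate with microtubules. They had 7 of 15 measured lower (46.7%) and 1 higher (6.67%), with 5 at the floor, at a median of -0.69. Their median was -0.76 against air plant 1 and -0.77 against air plant 2 but -0.04 against air plant 3. IQD24 stood at 9.40, 9.71 and 9.19 against 6.49, 6.40 and 6.28 (-3.04 ± 0.16, adjusted p = 1.64e-06), and IQD23 rose by 1.58. In the salicylate and immunity list 4 of 5 measured genes rose (27 listed). BIK1, a kinase that acts below immune receptors, stood at 6.92, 7.27 and 7.61 against 10.77, 10.66 and 10.44 (3.36 ± 0.18, adjusted p = 2.05e-06). EFR, a receptor of bacterial elongation factor, stood at 2.11, 2.50 and 2.58 against 5.97, 5.65 and 4.13, at least 7.24-fold higher (adjusted p = 0.000482). Among the 3 gibberellin receptors, GID1A stood at 9.26, 9.52 and 10.09 against 7.27, 6.99 and 6.91 (-2.57, adjusted p = 2.87e-05) and GID1C fell by 2.50. The third, GID1B, ranged from 5.08 to 7.19 in air around high values of 6.07 to 6.23.

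In some enzyme families part of the members with a matching symbol fell and few or none rose. Of 29 measured serine carboxypeptidase-like genes 11 fell (37.9%) and none rose, and 16 lay at the floor, at a median of -0.04. In that family scpl50 stood at 8.96, 9.41 and 8.90 against 6.46, 6.25 and 6.98 (-2.52 ± 0.21, adjusted p = 2.33e-05), and scpl29, scpl42 and SCPL49 fell by 1.85, 1.47 and 1.34. With air plant 1 as the lone air plant 7 were called lower. Of 23 measured cytochrome P450 genes, most of them of the CYP71B subfamily, 10 fell (43.5%) at a median of 0.00 with 10 at the floor, and 6 were called lower with air plant 1 alone. The 1 rise was lost without air plant 2 or 3, without high plant 1 or 2 and with air plant 1 alone. CYP71B28 stood at 9.49, 10.16 and 9.91 against 6.95, 7.04 and 7.45 (-2.71 ± 0.19, adjusted p = 7.55e-06). Of 20 measured beta-glucosidases 6 fell (30.0%) and none rose, at a median of 0.00 with 11 at the floor, of which 2 were kept whichever plant was left out, BGLU44 (-1.60) and BGLU40 (-1.10). Without air plant 3 or without high plant 1 there were 2 falls in this family, and without high plant 2 there were 3. The subtilase ARA12, a secreted protease, had the smallest adjusted p of the falls of 1 to 3 under the same limits as for BZIP28, at 10.95, 11.09 and 10.98 against 9.06, 9.05 and 9.31 (-1.87 ± 0.09, adjusted p = 8.51e-07). Of the 7 measured genes with an SBT symbol, the same protease family, none was called lower, and SBT3.3 and SBT3.5 rose by 4.97 and 3.12.

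Of 47 measured glycosyltransferases of small molecules (UGT) 9 rose (19.1%) and 8 fell (17.0%), shares near the 14.7% and 19.9% over all probe sets. UGT71C5 rose from 8.60, 8.58 and 8.30 to 10.47, 10.58 and 10.39 (1.99 ± 0.11, adjusted p = 2.12e-06). UGT85A4 fell from 8.69, 8.49 and 9.05 to 6.59, 6.56 and 6.09 (-2.33 ± 0.17, adjusted p = 1.24e-05), and UGT76C1 fell by 1.44. Of 7 measured aldehyde dehydrogenases and reductases 4 fell (57.1%) and 1 rose (14.3%) at a median of -0.73. ALDH3F1 stood at 8.83, 9.18 and 9.43 against 7.27, 7.08 and 7.82 (-1.76, adjusted p = 0.000217), while ALDH7B4 stood at 9.52, 9.21 and 10.09 against 10.45, 10.74 and 10.52 (0.96, adjusted p = 0.00373). FDH, the formate dehydrogenase that oxidises formate, was not called, with 12.67, 11.72 and 12.72 in air and 11.64, 12.11 and 11.98 in the high plants (adjusted p = 0.267), and the groups overlapped.

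Other named moderate changes add single genes to these groups. SRC2, a protein of the endoplasmic reticulum, stood at 12.09, 11.73 and 11.92 against 14.36, 14.63 and 14.54 (2.59 ± 0.12, adjusted p = 8.67e-07). AR781 stood at 7.33, 7.00 and 7.47 against 9.93, 10.08 and 10.18 (2.79 ± 0.16), and the co-chaperone Hop2 and the carboxylesterase CXE16 rose by 2.47 and 1.73. On the lower side GSTU27, a glutathione transferase, fell by 2.06. TBL25, a member of a family of cell wall acetylation proteins, fell by 2.58, ATBCAT-5, a branched-chain aminotransferase, by 1.36, and CCL by 2.28. The 12 rises and 12 falls of 1 to 3 with the smallest adjusted p, described here and in the groups above, were chosen among genes whose groups do not overlap.

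**Figure D4:**
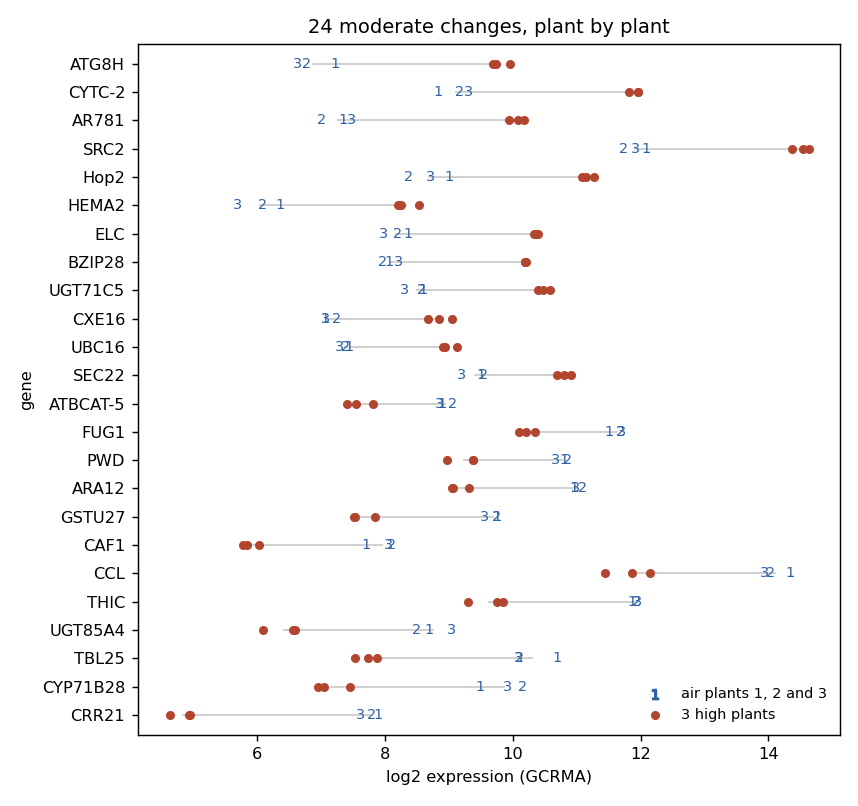
Log2 expression (horizontal axis) of the 24 genes with the smallest adjusted p among moderate changes (vertical axis) in each plant. Blue digits are air plants 1, 2 and 3, red points the 3 high plants, and grey lines join the group means. In no gene do the groups overlap, and the changes run from -2.93 for CRR21 to 2.92 for ATG8H.

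Some called genes had sizes that depended on the air plant chosen. EXLA1, an expansin-like gene of the cell wall, stood at 11.07, 6.27 and 6.84 in air and at 11.98, 12.61 and 12.35 in the high plants. Its change of 4.25 ± 1.06 (adjusted p = 0.0121) was made of differences of 1.24, 6.04 and 5.48 against air plants 1, 2 and 3. With air plant 1 as the lone air plant it was not called (1.24, adjusted p = 0.0957). The brassinosteroid-responsive gene EXO stood at 10.33, 7.93 and 6.58 in air and at 12.57, 13.27 and 13.02 in the high plants, and was called in that setting too (2.62, adjusted p = 0.0125). ULT1 was called (adjusted p = 0.0325) but not without air plant 2 or 3 or any one high plant, and GSTF4 (adjusted p = 0.0207) not without air plant 2 or 3 or high plant 1 or 3. ULT1 and GSTF4 differed from air plant 1 by 0.49 and 0.53 and were not called against it (adjusted p = 0.726 and 0.364), nor was THI2.2 (1.1, adjusted p = 0.273). PUB23 was the only one of the 6 rises whose air value was lowest in air plant 1, at 3.71, 4.72 and 6.05.

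On the lower side the same plants parted. SWEET13, a sugar exporter, stood at 6.91, 10.57 and 9.80 in air and at 2.83, 3.05 and 2.83 in the high plants, so that its difference was -4.01 against air plant 1 and -7.67 against air plant 2. High plants 1 and 3 held exactly the same value, the lowest of the 12 arrays for this probe set, so these sizes may be lower bounds. TBL26 differed by -2.73 from air plant 1 and by -7.35 from air plant 3. The jacalin-related genes JAL23 and JAL34 were highest in air plant 3, at 10.92 and 10.43, and lowest of the air plants in plant 1, at 6.26 and 6.57. HIS1-3, a linker histone, was not called against air plant 1 alone (-1.66, adjusted p = 0.225). DFR, an enzyme of anthocyanin synthesis, was at the floor in air plant 1 and in all 3 high plants and at 8.50 and 7.76 in air plants 2 and 3. It was called (adjusted p = 0.0487) with groups that overlap and a difference of 0 against air plant 1, and the call was lost without air plant 2 (0.16) or 3 (0.157) or any one high plant (0.102 to 0.11).

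**Figure D5:**
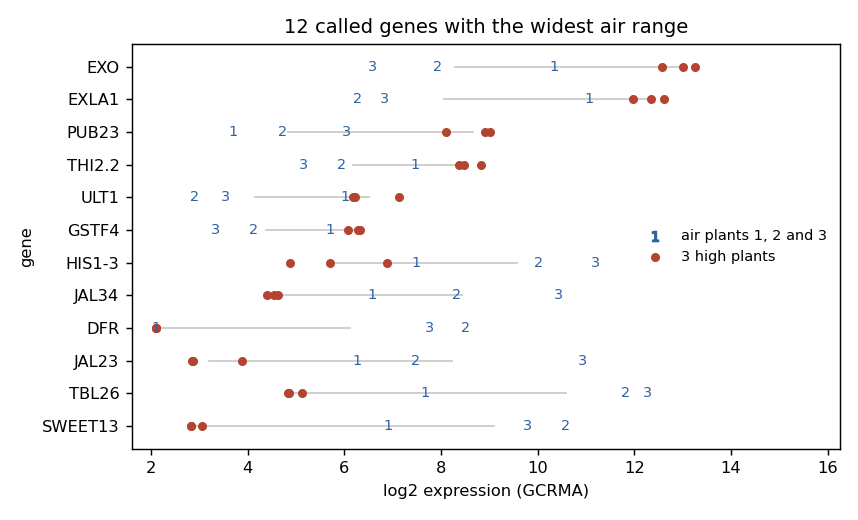
Log2 expression (horizontal axis) of the 12 named genes with the widest range among the air plants (vertical axis). Blue digits are air plants 1, 2 and 3, red points the 3 high plants, and grey lines join the group means. Air plant 1 lies nearest to the high plants in 11 of the 12 genes, PUB23 being the exception.

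In the auxin response genes GH3.3, WES1 and IAA29 the sign itself depended on the air plant. Of 7 measured genes of that list (45 listed) none was called, and 3 lay at the floor. IAA18, also above the floor, was lower against each air plant (-0.65, -0.07 and -0.12). GH3.3, which conjugates auxin to amino acids, stood at 9.37, 3.94 and 3.94 in air and at 6.93, 7.58 and 8.38 in the high plants, a difference of -1.74 against air plant 1 and of 3.69 against each of the others (adjusted p = 0.39). Its values in air plants 2 and 3 were exactly the same, which may be a lower limit of the probe set there, although outside plant 3 stood lower at 3.13. Without air plant 1 it was called higher (3.69, adjusted p = 0.00957). WES1 had the same pattern, with 6.82, 3.22 and 2.97 in air and 5.10, 6.01 and 6.94 in the high plants (adjusted p = 0.27). IAA29, an auxin-responsive repressor, went the other way, with 8.06, 2.34 and 3.74 in air and 2.91, 3.21 and 3.86 in the high plants (-1.38, adjusted p = 0.47). It was lower against air plant 1 alone (-4.73, adjusted p = 0.000224) and changed by 0.29 without air plant 1 (adjusted p = 0.807). Of 6 measured antioxidant enzymes and 6 measured genes of the pentose phosphate pathway none was called either, with medians of 0.01 and -0.05.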

How the data were processed

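RNA of rosette leaves was measured on 1 array per plant in 12 plants, 3 each outside, in air, at low and at high formaldehyde. The authors deposited log2 values made with GCRMA, per the submitters' processing notes, and these were used as deposited, with medians of 5.68 to 5.82 per array. No version or options of GCRMA are stated there. In R 4.3.3, limma 3.58.1 fitted 4 group means to all 12 arrays (8 residual degrees of freedom, eBayes with a mean trend, two-sided), with Benjamini-Hochberg adjustment over 22746 probe sets. Depth has no meaning for arrays, and 3 plants a group limit the precision. The fit was tested on simulated data. Tables and plots used Python 3.11.15, pandas 2.3.3 and matplotlib 3.10.9.

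Of the probe sets 13513 were paired with 1 gene, and 13436 of them were found in the RefSeq gene table. Where a gene had several, the one with the highest mean over 12 arrays stood for it, which left 13286 genes. A fold is a lower bound where a group mean lay within 0.5 of the floor. The members and gene lists were chosen with earlier results of these data known. There were 45 lists of loci, 12 lists added after values of these data had been seen, and 35 by symbol or chromosome. Besides plastid RNA processing and ESCRT, the added lists include the NADH dehydrogenase-like complex, aminoacyl-tRNA synthetases and translation factors. They also include chloroplast ribosomal proteins, thylakoid lumen and photosystem assembly, respiratory complexes and the vacuolar proton pump. The counts of all added lists are descriptions. Named genes were up to 4 members with the smallest adjusted p in each list of at least 5 measured genes, the 12 per direction with the smallest adjusted p among called genes with a symbol, a change of 1 to 3, no overlap and a mean of at least 6 in the higher group, outside the heat shock lists, the 6 such genes per direction with the widest air range whatever their size and overlap, and FDH. The gibberellin receptors, marker genes and others outside this rule (PRA1.F1, VPS22, VPS24.1, VPS46.2, VHA-A1, BZIP17, AT2G32220 and further members of a list) were chosen after their values were seen. Same-numbered high and air plants did not deviate together (correlations across probe sets of -0.07, -0.12 and -0.18), so the numbers pair nothing. Alternatives were other normalizations, a filter on dim probe sets, other variance models, array weights, a replicate block, other control plants, a stricter threshold and plants left out.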

Additional observations from a re-analysis of the deposited data

How the results depend on the processing

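Over 16 settings the number of probe sets called ran from 5374 to 8556 against 7867, and at an adjusted p under 0.01, tried for these counts only, it was 5728. The count without overlap was always taken over all 6 plants, and it was not computed for centred or quantile-normalized values or the outside plants. With air plant 1 as the lone air plant, whose spread is then assumed to be that of the other groups, 5374 were called, 3000 of them lower, and 4970 of them had no overlap in the full groups. Of those 5374 calls 91.3% had the same sign among the 7867, or 62.4% of the 7867. Without air plant 1 there were 7850. The plant numbers do not pair the plants, and with a replicate block 7530 were called. Every group held the same plant numbers, so this block could not alter any change or list median, and only the calls could differ. Centring each array on its median shifted all changes by 0.07, and gave 3866 higher and 4119 lower.

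List medians were compared with their spread between plants. Against the outside plants the ribosomal protein median was -0.39, ribosome biogenesis 0.36, CCT -0.39, translation factors 0.34, chlorophyll synthesis -1.22, starch and sucrose -1.40, the tricarboxylic acid cycle 0.70, endoplasmic reticulum folding 0.77, U-box ligases 0.43, calmodulin-like genes 2.70, salicylate and immunity 3.92 and antioxidant enzymes -0.35, and autophagy turned to 0.15. With air plant 1 alone, starch and sucrose was -1.36, U-box ligases 0.24, calmodulin-like genes 1.59, auxin -0.65 and antioxidant enzymes 0.17, and 7 carboxypeptidase-like, 6 cytochrome P450 and 3 beta-glucosidase genes were called lower. With a mean of at least 4 required, starch and sucrose was -1.54, PRA1 0.70, calmodulin-like genes 2.71 and auxin 0.70, since members at the floor left the list. Array weights gave translation factors 0.27, and the high and air arrays alone gave 1 beta-glucosidase fall. Leaving out single plants moved calmodulin-like genes between 1.57 and 2.096, U-box ligases between 0.28 and 0.88, translation factors between 0.095 and 0.30 and beta-glucosidase falls between 2 and 6. The causes were not tested apart from those named.

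Of 265 genes the naming rule picks, those called kept their sign in every setting that used air plants, except DFR and UF3GT, which had a difference of 0 with air plant 1 alone. Against the outside plants 7 of them turned: AT5G08180 (0.12), AT5G65750 (0.70), CHX16 (0.36), EXPA16 (-0.83), MSRB5 (0.67), NRPB6B (0.084) and THI2.2 (-0.93). Limits common to all results are the single chamber run per condition, the 3 plants per group and probe sets at the floor, whose changes cannot be read.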
